A study of Mus musculus with 27 samples.

Results

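The nuclei described here were picked from single-nucleus RNA-seq of mouse hippocampi by the transcript of Fezf2 (chromosome 14, 12342094 to 12348189, minus strand, GRCm38), and are called Fezf2-gated nuclei. A nucleus was kept with 200 to 8000 detected genes and at most 5% of its unique molecular identifiers (UMIs, counted RNA molecules) from mitochondrial genes. It was a member with at least 2 Fezf2 UMIs, at least 1 UMI of Slc17a7 or Camk2a, at most 1 UMI each of Foxp2, Tshz2, Cux2, Prox1 and Fibcd1, at most 1 UMI of Gad1 and Gad2 together and of Mog and Mag together, and at most 1 of Cplx3, Nxph4 and Ctgf detected. These values come from the same libraries, so the levels of the genes in the rule are a description and not a finding. The rule took 616 of 241266 kept nuclei, from all 27 libraries, with 3 to 50 nuclei per mouse and a median of 20.

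Fezf2 encodes a zinc finger transcription factor that in the neocortex specifies the layer 5 neurons sending axons out of the cortex, to brainstem and spinal cord. Bcl11b (CTIP2) acts with it in these cells and is needed for their axons to reach the spinal cord. Slc17a7 encodes VGLUT1, which loads glutamate into synaptic vesicles. Bcl11b is also high in hippocampal pyramidal and granule neurons, so it does not by itself mark cortex.

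Each library came from the frozen hippocampi of 1 mouse of 8 to 9 months, male or female, from crosses whose littermates were compared. Another passage of the study's methods gives a somewhat older age. The mice carried, or did not carry, a human tau transgene with the P301S mutation under the mouse Prnp promoter, on a background with both, 1 or neither copy of Cgas, the sensor of cytosolic DNA. Wild-type mice with both copies (Cgas+/+, 5 mice) gave 150 members, P301S Cgas+/+ mice (6) gave 117, P301S Cgas+/- mice (6) gave 108 and P301S Cgas-/- mice (6) gave 141. The transgene-free Cgas+/- and Cgas-/- mice (2 each) gave 54 and 46 and entered no test. The tau contrast compares the P301S Cgas+/+ mice with the Cgas+/+ mice. The deletion contrast compares P301S Cgas-/- with P301S Cgas+/+ mice, and the heterozygous contrast compares P301S Cgas+/- mice with the same group. They ask what the tau transgene does to these nuclei, and whether losing Cgas alters it in transgenic mice. All 3 share the P301S Cgas+/+ mice.

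Libraries held 46091490 to 79484316 UMIs, and the median UMI count of members ranged from 9455 to 23740 between mice. No barcode was shared by members of different libraries, although the barcodes of 43 members also occurred in another library. The Cgas transcript, listed as Mb21d1, did not separate the groups in excitatory nuclei, with 1.17 to 1.60 counts per 1000000 UMIs (CPM) in Cgas+/+ and 0.921 to 1.73 CPM in P301S Cgas-/- mice. Where the lesion lies relative to the counted reads is not given in the sources used here, so this gene does not check the labels. The lincRNA Gm43049 was at 0 to 0.101 CPM in all transgene-free mice and at 3.27 to 20.3 CPM in P301S mice. All 12 libraries with software version 3.0.2 in their headers were male, 2 per group, and the other 15 carried version 3.1.0.

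The label of these nuclei, layer 5 neurons, held only in part. Members with at least 1 UMI made up 79.2% for Bcl11b and 79.5% for Slc17a7. Nuclei of oligodendrocyte type, which should lack Fezf2, had a UMI of it in 0.740% and of Bcl11b in 2.74%. With every nucleus thinned to 3000 UMIs, which left out 9 members and 27221 oligodendrocyte-type nuclei, the share with Bcl11b was 48.9% in members and 3.27% in oligodendrocyte-type nuclei. The members' Bcl11b level of 307 CPM was below the 462 CPM of Fibcd1-gated nuclei, a CA1 type, and the 426 CPM of Prox1-gated granule-type nuclei.

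Markers of layer 5 neurons gave a mixed picture, some near 0 and others well detected. Among markers of extratelencephalic neurons, which leave the forebrain, Chrna6 was at 0.215, Fam84b at 2.26 and Pcp4 at 2.48 CPM. Among markers of intratelencephalic neurons, which project within it, Colq was at 0 and Batf3 at 0.646 CPM, while Il1rapl2 was at 156 CPM, below the 412 CPM of Cux2-gated nuclei. Ldb2, a cofactor of LIM-domain transcription factors, was at 1035 CPM against 276 in Cux2-gated and 551 in Foxp2-gated nuclei, the upper-layer and layer 6 types. Etv1, Parm1 and Npr3 were likewise higher than in the Cux2 gate, at 147, 218 and 82.3 CPM against 18.6, 22.0 and 14.4 CPM. Vat1l, another extratelencephalic marker, was at 43.1 CPM, below the 84.0 CPM of the Cux2 gate. Teddm3, a subiculum marker, was at 16.2 CPM against 0.161 in the Cux2 gate, 1.97 in the Foxp2 gate and 0.403 in the Fibcd1 gate.

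Relative to all other Slc17a7- or Camk2a-positive nuclei, and apart from Fezf2 itself at 16.9-fold, the highest ratios among genes at 20 CPM or more in members were those of Gm6260 (4.99-fold), Gm42707 (4.91-fold), Fras1 (4.23-fold), Dcn (3.79-fold), Klhl1 (3.73-fold) and Nov (3.42-fold). Fras1 encodes an extracellular matrix protein, Dcn the proteoglycan decorin and Nov the matricellular protein CCN3. Dcn and Nov are among the CA1 markers. Of the other CA1 markers outside the rule, Lefty1 had 3 UMIs, Wfs1 53 and Mpped1 2249 over all members. Gm6260, Gm42707 and Klhl1 were among the 10 leading genes of the subiculum-like Rab38 cluster described below. Nuclei just below the Fezf2 threshold, with 1 UMI and all other limits met, numbered 3195 and had a median of 11984 UMIs, Bcl11b at 237 CPM and Teddm3 at 6.46 CPM. The 462 members with exactly 2 Fezf2 UMIs had a median of 14728 UMIs, Bcl11b at 289 CPM and Teddm3 at 14.4 CPM.

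Clustering the members without the genes of the rule gave 8 clusters, each called here by its leading gene. The Col5a2 cluster held 146 nuclei (23.7%) from 24 mice and stayed unnamed. It had 3 of 5 CA1 markers (Wfs1, Dcn and Nov), 1 of 12 extratelencephalic markers (Pou3f1) and 0 intratelencephalic markers higher than in the other members, with Nov detected in 45.9% and Dcn in 36.3%, and the upper-layer marker Calb1 was among its 10 leading genes. The Rab38 cluster held 136 nuclei (22.1%) from 20 mice, and was subiculum-like: Teddm3 was detected in 41.9%, Slc17a6 (the vesicular glutamate transporter VGLUT2) in 13.97% and Fn1 (fibronectin) in 10.3%, with Bcl11b in 99.3%. It also had 4 of the 12 extratelencephalic markers higher than in the other members (Bcl11b, Pou3f1, Parm1 and Ldb2), and Etv1 of the intratelencephalic ones. The Gm45323 cluster, with 47 nuclei (7.63%), had 4 of the 12 extratelencephalic markers (Pou3f1, Npr3, Parm1 and Vat1l), 2 subiculum markers, 3 CA1 markers and 3 of 5 microglia markers (P2ry12, Cx3cr1 and Inpp5d) higher than in the other members, with Teddm3 in 36.2% and Dcn in 40.4% of nuclei, and stayed unnamed.

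The Erg cluster, 78 nuclei (12.7%) from 17 mice, carried most of the extratelencephalic markers. In it 7 of the 12 were higher than in the other members, among them Bcl11b at 509 CPM and in every nucleus, Vat1l at 189 CPM and in 78.2%, and Fam84b and Pcp4 in 15.4% and 11.5%. It also had Lamp5, an upper-layer marker, in 47.4% and Stxbp6, a granule cell marker, among its 10 leading genes, and was left unnamed. The Il1rapl2 cluster of 26 nuclei (4.22%) from 11 mice was layer 5 intratelencephalic-like, with Il1rapl2 in 84.6%, Etv1 in 73.1% and Deptor in 65.4%. These were 3 of the 6 intratelencephalic markers. The cluster also had 2 of 4 layer 4 markers (Rorb and Whrn) and 2 of 3 oligodendrocyte markers (Mobp and Mbp) higher than in the other members. The Erg and Il1rapl2 clusters together held 104 nuclei, 16.9% of members.

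**Figure D1:**
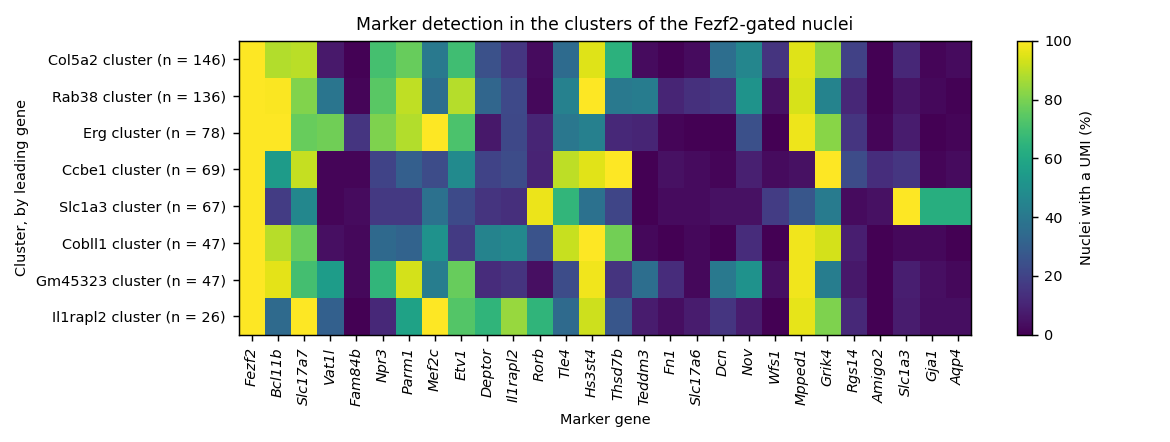
Share of nuclei with at least 1 UMI (colour, 0 to 100%) of each marker gene (columns) in the 8 clusters of Fezf2-gated nuclei (rows, by leading gene). Vat1l reaches 78.2% in the Erg cluster and Teddm3 41.9% in the Rab38 cluster, while Slc17a7 falls to 46.3% in the Slc1a3 cluster.

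The remaining clusters carried markers of other types. The Cobll1 cluster (47 nuclei, 7.63%) was layer 6 corticothalamic-like, with Tle4, a corepressor, in 91.5% and Hs3st4, a heparan sulfate sulfotransferase, at 4510 CPM. In it Deptor and Il1rapl2 of the 6 intratelencephalic markers and the layer 6b marker Moxd1 were also higher than in the other members. The naming left out genes of the rule. Of these, the layer 6b marker Ctgf was in 25.5% of the Cobll1 cluster, at 48.3 CPM against 0.114 CPM in the other members. The corticothalamic marker Foxp2 was in 38.3%, at 34.8 against 8.21 CPM. The Ccbe1 cluster (69 nuclei, 11.2%) stayed unnamed. It had 4 of 5 layer 6 corticothalamic markers higher than in the other members (Syt6, Tle4, Hs3st4 and Thsd7b), against 3 of 5 in the Cobll1 cluster, with Thsd7b in every nucleus and Tle4 in 89.9%. It also had 3 of 6 CA2 and CA3 markers higher (Rgs14, Amigo2 and Grik4), among them Grik4, a kainate receptor subunit, at 1727 CPM and in every nucleus, and Bcl11b in 55.1%. The Slc1a3 cluster (67 nuclei, 10.9%) was astrocyte-like: all 4 astrocyte markers were higher in it, Slc1a3 (the glutamate transporter GLAST) at 1814 CPM and the water channel gene Aqp4 in 62.7%, its median was 4680 UMIs, and Slc17a7 was found in 46.3%. No doublet caller was run here. The thresholds for naming clusters were set after the clusters had been seen.

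**Figure D2:**
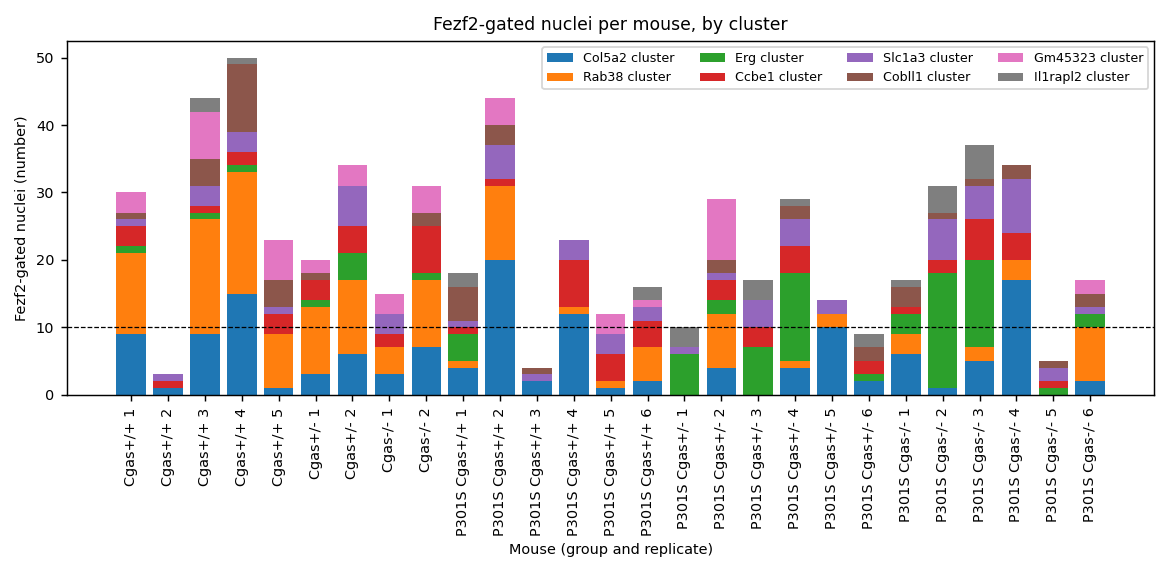
Number of Fezf2-gated nuclei in each of the 27 mice (bars), coloured by cluster, with a dashed line at the 10 members needed to enter the tests across genes. The Erg cluster is a large part of the bars of P301S Cgas-/- replicates 2 and 3, and the Rab38 cluster made up 34.8% to 40.0% of the Cgas+/+ mice above the line.

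Clusters took uneven shares of the mice, and these are given without a test. Over mice with at least 10 members, the Rab38 cluster made up 37.4% ± 2.39 (SD, n = 4) in Cgas+/+ and 14.9% ± 12.4 (SD, n = 5) in P301S Cgas+/+ mice, and averaged 9.06% in P301S Cgas+/- and 15.8% in P301S Cgas-/- mice. The Erg cluster made up 1.90% ± 1.39 (SD, n = 4) in Cgas+/+, 4.44% ± 9.94 (SD, n = 5) in P301S Cgas+/+, 30.6% ± 25.9 (SD, n = 5) in P301S Cgas+/- and 23.9% ± 21.5 (SD, n = 5) in P301S Cgas-/- mice, and each of these groups held a mouse at 0. In P301S Cgas+/+ mice all of it came from replicate 1, at 22.2%, and the other 4 were at 0. The astrocyte-like cluster made up 5.12% ± 1.58 (SD, n = 4) in Cgas+/+ and 13.5% ± 7.09 (SD, n = 5) in P301S Cgas+/+ mice. Each level below is a sum over all members of a mouse, in which a change in the kinds of nuclei and a change within nuclei cannot be told apart.

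How many members each genotype had was compared by exact two-sided permutation tests over mice, adjusted over 12 such tests. They formed 0.348% ± 0.241 (SD, n = 5) of kept nuclei in Cgas+/+ mice, and ranged from 0.0388% to 0.640% between those mice. In P301S Cgas+/+ mice they formed 0.212% ± 0.156 (SD, n = 6; exact permutation p = 0.277). P301S Cgas-/- mice had 0.273% ± 0.161 (SD, n = 6; exact p = 0.513 against P301S Cgas+/+) and P301S Cgas+/- mice 0.218% ± 0.122 (SD, n = 6; exact p = 0.944). Among the 2 mice per group with header version 3.0.2, compared after the data were seen, the differences had the opposite signs, 0.148 percentage points for tau, -0.0824 for deletion and -0.115 for the heterozygous contrast. Among the mice with version 3.1.0 they were -0.304, 0.134 and 0.0670. All groups overlapped, and 0.00433 was the smallest p that 6 against 5 mice could give.

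Dissections may carry different amounts of cortex, so members were also set against the sum of members, Cux2-gated and Foxp2-gated nuclei. Members were 7.19% ± 4.19 (SD, n = 5) of this sum in Cgas+/+, 8.56% ± 7.37 (SD, n = 6) in P301S Cgas+/+, 6.503% ± 8.86 (SD, n = 6) in P301S Cgas-/- and 3.94% ± 3.57 (SD, n = 6) in P301S Cgas+/- mice. The exact permutation p was 0.736 for tau, 0.736 for deletion and 0.227 for the heterozygous contrast. The median UMI count of members was taken over nuclei already chosen for at least 2 Fezf2 UMIs. It averaged 13550 in Cgas+/+ and 14703 in P301S Cgas+/+ mice (exact permutation p = 0.532). The adjusted p of all 12 tests of single values lay between 0.831 and 0.944.

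**Figure D3:**
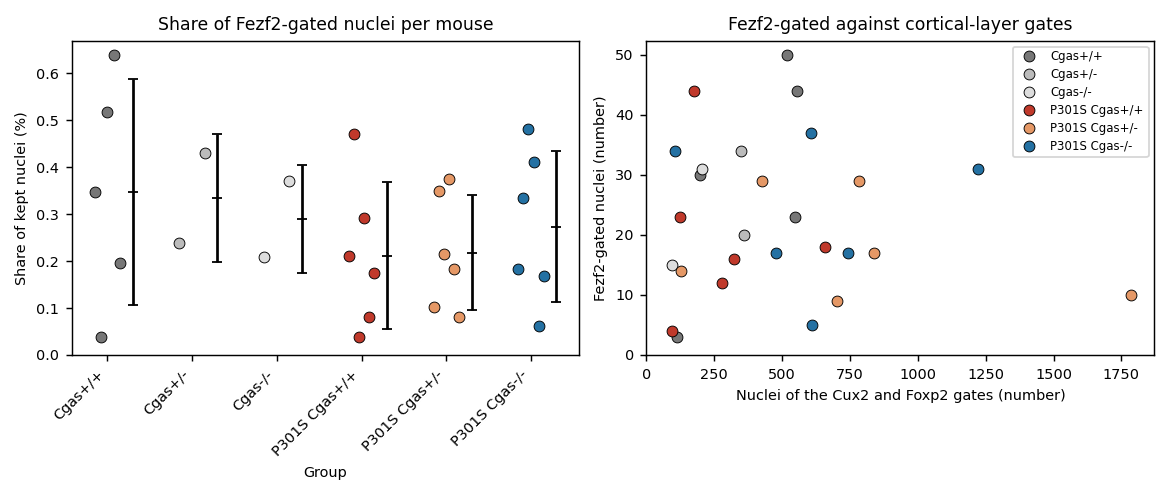
Left, Fezf2-gated nuclei as a percent of kept nuclei, 1 point per mouse, with the mean and SD of each group beside the points; right, their number per mouse against the number of Cux2-gated and Foxp2-gated nuclei. The groups overlap on the left, and on the right the mouse with most nuclei of the other gates, P301S Cgas+/- replicate 1, had 10 members.

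Summed counts of the 19 mice with at least 10 members were compared gene by gene with edgeR's quasi-likelihood test, with sex as a covariate and Benjamini-Hochberg adjustment over 5849 genes. In the tau contrast 0 genes passed an adjusted p of 0.05 (0% of those tested), in the deletion contrast 0 (0%) and in the heterozygous contrast 0 (0%). At an unadjusted p under 0.05 there were 268, 269 and 306 genes, and DESeq2 also called 0 in each. Without the filter on low counts 6, 8 and 10 genes passed, among them Abcc4 and Bcan for tau, Limch1, Chrna7, Slc9a4 and Lamp5 for deletion, and Lamp5 and Grik1 for the heterozygous contrast. On simulated counts for the deletion contrast, 42% of genes changed 2-fold and 86% of those changed 4-fold were recovered, so changes of 2-fold were often out of reach. The simulation changed 200 genes at once, and 10 unchanged genes were also called in it. Recovery with fewer changed genes was not simulated, and Lamp5, at 3.9 on the log2 scale for deletion, did not pass in the data. Values by mouse are given below in replicate order, leaving out mice with fewer than 10 members. Statements below on the overlap of gene levels cover only the mice with at least 10 members. The share of all tested genes without such overlap was not counted. The genes given this way were mostly picked for a small p, so an absence of overlap is a description and not a finding. The fold changes below are values that did not pass, except in the contrast of sex.

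The female against male contrast checked the labels and called 12 genes (0.205% of those tested). Xist, the RNA that silences an X chromosome, was higher in females by 9.93 on the log2 scale. The Y-linked genes Eif2s3y, Kdm5d, Uty and Ddx3y were lower, at -7.63, -6.71, -5.82 and -4.41. Outside the sex chromosomes 7 genes were called, with 4930545L23Rik at -1.88 (SE 0.33, edgeR adjusted p = 0.00963), Gm26904 at -1.08, Epo at -1.04, 9630028H03Rik at -1.07 and Tpr at -0.67 lower in females. Among the 7, Zhx2, a transcriptional repressor, was higher in females by 1.07 on the log2 scale (SE 0.22, edgeR adjusted p = 0.0338). Enpp2, which encodes autotaxin, was lower at -1.28 (SE 0.26, edgeR adjusted p = 0.0306). With the header version as a covariate, added after the data were seen, none of these 7 passed (edgeR adjusted p from 0.602 to 0.892), while Xist and the Y-linked genes did. Their log2 fold changes were then -1.68 for 4930545L23Rik, -0.68 for Tpr and -1.01 for Enpp2, and 0.56, -0.55, -0.39 and -0.35 for Zhx2, Epo, 9630028H03Rik and Gm26904.

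Of the 3 genes that the label names, Fezf2 had log2 fold changes of -0.02, 0.03 and -0.04 in the tau, deletion and heterozygous contrasts, which the rule constrains. Bcl11b had -0.12, -0.01 and -0.18, with standard errors of 0.26 to 0.27, and Slc17a7 0.30, -0.21 and -0.01. Of 20 regulators of layer identity 18 were tested and 0 were called, with medians of -0.02, -0.01 and 0.03 beside medians over all genes of 0.01, -0.00 and 0.01. Among them Ldb2 had the smallest unadjusted p in the tau contrast, at a log2 fold change of -0.53 (SE 0.24).

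The gene of smallest p in the tau contrast was Abcc4, which encodes an efflux transporter of cyclic nucleotides and other organic anions. Its levels were 9.24, 20.1, 17.7 and 15.5 CPM in Cgas+/+ mice and 47.1, 28.8, 63.5, 57.5 and 57.2 CPM in P301S Cgas+/+ mice. The listed mice did not overlap. The left-out Cgas+/+ replicate 2 had 9 Abcc4 UMIs in 3 members, a level above every listed P301S Cgas+/+ mouse. The log2 fold change of 1.63 (SE 0.38) did not pass the test (edgeR adjusted p = 0.9999). Next in order were Tle1, Kif1c, Cul2, Fgfr1, Bcan, Atp2a2, Rnf19a, Zhx2 and Rap1a, of which only Cul2 was lower in P301S mice.

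Rnf19a (chromosome 15, 36239933 to 36283147, minus strand), which encodes the E3 ubiquitin ligase dorfin, was among the 10 genes of smallest p in each contrast. Its levels were 48.5, 45.5, 50.7 and 58.1 CPM in Cgas+/+ mice and 68.0, 73.6, 88.4, 109 and 80.1 CPM in P301S Cgas+/+ mice. They were 48.6, 46.8, 28.5, 52.8 and 22.5 CPM in P301S Cgas+/- and 39.4, 47.8, 46.3, 49.2 and 50.9 CPM in P301S Cgas-/- mice. Every listed P301S Cgas+/+ mouse lay above every listed mouse of the other 3 groups. P301S Cgas+/+ replicate 3, left out with 4 members, had 2 Rnf19a UMIs, a level below the listed mice of its group. The log2 fold changes were 0.75 (SE 0.22) for tau, -0.87 (SE 0.22) for deletion and -1.07 (SE 0.23) for the heterozygous contrast, with edgeR adjusted p of 0.9999, 0.966 and 0.528. The contrasts share the P301S Cgas+/+ mice, and these values come from 1 set of 5 high mice. Without the astrocyte-like cluster the log2 fold changes were 0.59, -0.75 and -0.87. That fit also lost P301S Cgas+/+ replicate 5, the mouse at 109 CPM, and P301S Cgas+/- replicate 1, which had fewer than 10 nuclei left.

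In the deletion contrast Limch1, an actomyosin regulator, came first at -0.94 on the log2 scale (SE 0.22, edgeR adjusted p = 0.966). Chrna7, the alpha7 nicotinic receptor subunit, was at -0.98 (SE 0.27) and Slc9a4, a sodium-proton exchanger, at -1.84 (SE 0.44). Lamp5 (chromosome 2, 136052239 to 136069917, plus strand), a membrane protein of the LAMP family, was at 0, 3.20, 0, 0 and 0 CPM in P301S Cgas+/+ mice and at 14.8, 28.3, 35.1, 3.39 and 0 CPM in P301S Cgas-/- mice. P301S Cgas+/- mice had 32.4, 35.6, 28.5, 22.0 and 0 CPM. The left-out P301S Cgas+/+ replicate 3 had 2 Lamp5 UMIs in 4 members, a level above most of the listed P301S Cgas-/- mice. The left-out P301S Cgas-/- replicate 5 had 0 in 5 members. Lamp5 was detected in 47.4% of the Erg cluster. This cluster averaged 4.44% of members in P301S Cgas+/+ mice and 30.6% and 23.9% in P301S Cgas+/- and Cgas-/- mice. P301S Cgas+/- replicate 2, at 35.6 CPM of Lamp5, had 2 of its 29 members in the Erg cluster. The part of this cluster in the Lamp5 level was not tested, since Lamp5 was among the leading genes that set it apart.

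Tenm3, a teneurin that guides synaptic partner choice, was among the 10 genes of smallest p in the heterozygous contrast. Its levels were 1256, 587, 326, 408 and 321 CPM in P301S Cgas+/+ mice and 1764, 893, 2264, 2153 and 816 CPM in P301S Cgas+/- mice, which overlapped. The log2 fold change was 1.49 (SE 0.38, edgeR adjusted p = 0.806), and 0.37 without the Erg and Il1rapl2 clusters. That second fit also lost P301S Cgas+/- replicates 1 and 3, at 1764 and 2264 CPM, which kept only 1 and 7 nuclei. The 2 values therefore do not compare the same mice. Yap1, the Hippo pathway coactivator, was at 15.7, 9.60, 11.1, 11.5 and 7.63 CPM in P301S Cgas+/+ and 64.8, 26.7, 77.2, 28.6 and 19.3 CPM in P301S Cgas+/- mice. These listed mice did not overlap, with a log2 change of 1.87 (SE 0.46, edgeR adjusted p = 0.806). The left-out P301S Cgas+/+ replicate 3 had 3 Yap1 UMIs in 4 members, a level above some of the listed P301S Cgas+/- mice.

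Of 4 astrocyte markers 3 were tested in the tau contrast and 0 were called. Their log2 fold changes ran from 0.68 to 2.04, with a median of 1.25. Over mice with at least 10 members, the summed level of all 4 was 176 to 478 CPM in Cgas+/+ and 360 to 1095 CPM in P301S Cgas+/+ mice. The ranges overlapped, and Aqp4 was at 0 in at least 1 mouse of each group. Slc1a3 was at 27.7, 53.5, 44.3 and 27.1 CPM in Cgas+/+ mice and 57.6, 84.8, 105, 276 and 321 CPM in P301S Cgas+/+ mice. These listed mice did not overlap (log2 fold change 2.04, SE 0.78). The left-out Cgas+/+ replicate 2 had 10 Slc1a3 UMIs in 3 members, a level above every listed P301S Cgas+/+ mouse. Bcan, a brain proteoglycan among the 10 genes of smallest p, was at 6.93, 9.36, 10.1 and 0 CPM in Cgas+/+ and 0, 27.2, 77.4, 23.0 and 45.8 CPM in P301S Cgas+/+ mice. Cgas+/+ replicate 2 had 4 Bcan UMIs in its 3 members, again a level above every listed P301S Cgas+/+ mouse. The astrocyte-like cluster had the higher mean share in P301S Cgas+/+ mice, as given above. In the fit without this cluster, which also lost P301S Cgas+/+ replicate 5, Bcan fell below the filter on low counts. Teddm3, by contrast, had a tau log2 fold change of -2.14 (SE 0.88), beside the lower mean share of the Rab38 cluster, in which it was most often found. The summed level of the 4 subiculum markers was 25.4 to 57.8 CPM in Cgas+/+ and 0 to 38.4 CPM in P301S Cgas+/+ mice.

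Mef2c (chromosome 13, 83504034 to 83667080, plus strand) encodes a transcription factor that shapes excitatory synapse number and activity-dependent transcription, and the study examined it in neurons. Its level in Cgas+/+ mice with at least 10 members was 53.1, 73.6, 74.7 and 50.3 CPM. P301S Cgas+/+ mice had 487, 41.6, 22.1, 80.5 and 195 CPM, P301S Cgas+/- mice 1004, 102, 671, 394 and 19.3 CPM, and P301S Cgas-/- mice 222, 557, 471, 74.6 and 123 CPM. Mice of each P301S group were spread widely, and all groups overlapped.

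By edgeR the Mef2c log2 fold change was 0.81 (SE 0.98, adjusted p = 0.9999) for tau, 1.24 (SE 0.87, adjusted p = 0.966) for deletion and 1.498 (SE 0.84, adjusted p = 0.895) for the heterozygous contrast. Over all mice, the difference in mean log2(CPM + 1) was 0.60 (exact permutation p = 0.476), 1.46 (exact p = 0.0952) and 1.57 (exact p = 0.171), with adjusted p of 0.913, 0.831 and 0.831. Leaving out 1 mouse at a time moved the unadjusted exact permutation p between 0.0260 (without P301S Cgas+/+ replicate 1) and 0.182 for deletion, and between 0.0346 (without P301S Cgas+/- replicate 5) and 0.307 for the heterozygous contrast. Without P301S Cgas+/+ replicate 1, the edgeR log2 fold changes of Mef2c were 0.12, 1.94 and 2.25 in the 3 contrasts, with adjusted p of 0.9998, 0.846 and 0.742.

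The Erg and Il1rapl2 clusters held 1339 of the 1714 Mef2c UMIs of members (78.1%), from 16.8% of all member UMIs. They contributed 9, 2, 10, 14, 0 and 3 nuclei in P301S Cgas+/- replicates 1 to 6, and 4, 21, 18, 0, 1 and 2 in P301S Cgas-/- replicates 1 to 6. P301S Cgas+/+ replicates 1 to 6 had 6, 0, 0, 0, 0 and 2, and Cgas+/+ replicates 1 to 5 had 1, 0, 3, 2 and 0. The mice with 6 or more such nuclei had 394 to 1004 CPM of Mef2c. With fewer, P301S Cgas+/- replicate 6 had 460 CPM with 3 such nuclei, and P301S Cgas-/- replicate 5 had 287 CPM with 1. Mef2c was among the leading genes of the Erg cluster, so the clusters are not independent of its level. Without both clusters, an alternative chosen after the data were seen, the differences were 0.15 for tau, 0.36 for deletion (exact permutation p = 0.548) and -0.45 for the heterozygous contrast (exact permutation p = 0.820). That negative sign rests on P301S Cgas+/- replicate 1, which kept 1 nucleus with Mef2c at 0 CPM, and without this mouse the difference was 0.55 (n = 5 and 6, exact permutation p = 0.368).

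**Figure D4:**
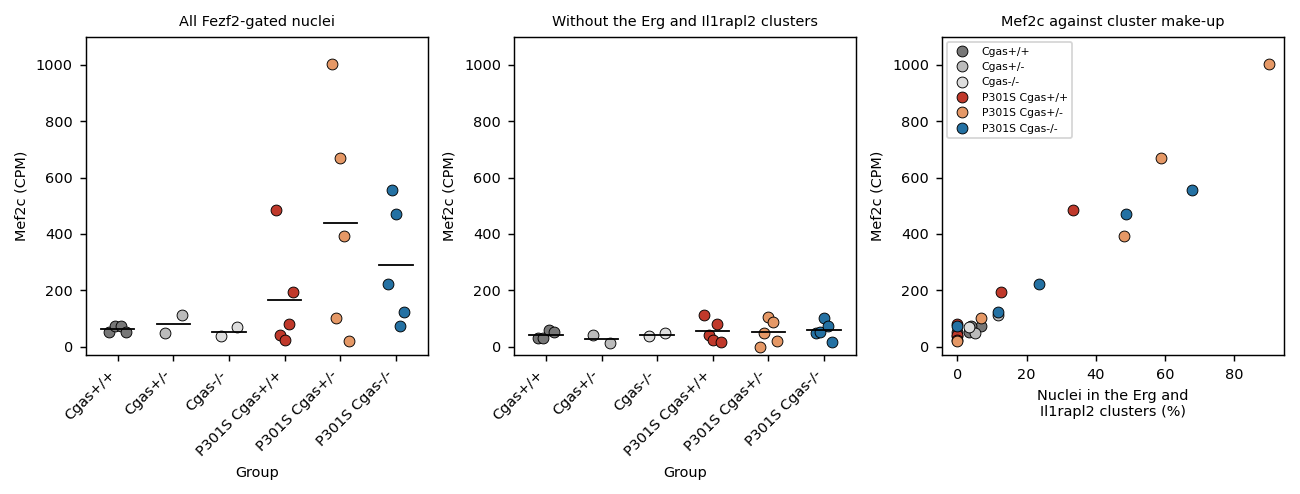
Mef2c level in CPM, 1 point per mouse with at least 10 members, in all members (left) and without the Erg and Il1rapl2 clusters (centre), with lines at group means, and against the percent of a mouse's members in these clusters (right). P301S Cgas+/- replicate 1 is highest at 1004 CPM, with 9 of its 10 members in these clusters.

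Whether Mef2c differed more in members than in Fibcd1-gated nuclei of the same mice was tested on the difference of the 2 log2 levels. It was higher by 1.09 in P301S Cgas+/+ than in Cgas+/+ mice (n = 5 and 4, exact permutation p = 0.190), by 1.06 in P301S Cgas-/- than in P301S Cgas+/+ mice (n = 5 and 5, exact permutation p = 0.230) and by 0.62 in P301S Cgas+/- mice (n = 4 and 5, exact permutation p = 0.556). None passed after adjustment over the 3 contrasts. Of 8 MEF2 and class IIa histone deacetylase genes 7 were tested and 0 were called, with medians of 0.27, 0.21 and 0.02. Hdac9, a deacetylase that represses MEF2 factors, was at 0.61 (SE 0.27) in the tau contrast.

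Pathways with a link to the genotype were mostly below the filter on low counts. Of 10 genes of the cGAS-STING pathway only Tbk1, the kinase downstream of STING, was tested, at 0.02, -0.14 and 0.03. Of 47 interferon-stimulated genes 2 were tested and 0 were called. The summed level of all 47 was 88.3 to 116 CPM in Cgas+/+, 119 to 370.2 CPM in P301S Cgas+/+, 70.7 to 416 CPM in P301S Cgas+/- and 106 to 207 CPM in P301S Cgas-/- mice, so the first of these groups did not overlap with the second, and the P301S groups overlapped. Its medians were 94.6, 136, 156 and 129 CPM in these groups, in the same order. The sum was not tested. Its 47 genes include those of the interferon receptor, Ifnar1 and Ifnar2. They had 11 and 7 UMIs in P301S Cgas+/+ replicate 4, and 10 and 7 in Cgas+/+ replicate 1. Without these receptor genes the Cgas+/+ and P301S Cgas+/+ mice overlapped. Summed microglia markers, 5 genes, were at 10.1 to 33.4 CPM in Cgas+/+ and 11.4 to 132 CPM in P301S Cgas+/+ mice. The 132 CPM was that of P301S Cgas+/+ replicate 5. Replicate 6, with the highest interferon-stimulated sum of its group, had the 11.4 CPM. The part of these markers in the interferon-stimulated sum was not tested.

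Genes of synapses and excitability were well covered, and none was called in the tau, deletion or heterozygous contrast. Of 24 glutamate receptor genes 22 were tested, with medians of -0.13, -0.11 and -0.18. Grik1, a kainate receptor subunit, had the lowest p among them in the heterozygous contrast, at 0, 49.6, 16.6, 11.5 and 87.8 CPM in P301S Cgas+/+ mice and 0, 13.4, 4.07, 6.60 and 0 CPM in P301S Cgas+/- mice (log2 fold change -2.45, SE 0.76). Of 50 ion channel genes 46 were tested, with medians of -0.03, -0.01 and -0.10, and of 48 genes of axon guidance and synaptic adhesion 44, with 0.10, -0.06 and -0.04. Of 23 genes that the study names in excitatory neurons 22 were tested, with medians of -0.00, 0.21 and 0.16. Most of this list was chosen on these same samples, while Rgs6 and Pdzrn3 were named in other mice, given a STING agonist.

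Of 15 activity-regulated genes 7 were tested, with medians of 0.12, -0.43 and -0.07, and of 18 genes for tau, its kinases and its phosphatase 15, with 0.02, -0.04 and 0.04. Layer 5 markers gave medians of -0.27, -0.01 and 0.23 for 7 tested extratelencephalic genes, and -0.44, 0.29 and 0.07 for 3 tested intratelencephalic genes. The median standard error of a gene was 0.29 in each of these contrasts.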

How the data were processed

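Nuclei from mouse hippocampi were sorted on DAPI and sequenced with the 10x 3' v3 chemistry. What the authors deposited is, for every library, a matrix of raw UMI counts by gene and barcode, aligned to mm10 with introns counted. Gene positions come from a GENCODE annotation of GRCm38. The submitters' processing notes name Cell Ranger 3.1.0 and Seurat 3.0. The study kept 200 to 4000 genes and removed doublets; here up to 8000 genes were kept, and no doublet caller was run. Of 241938 barcodes, 42 had over 8000 genes and 630 over 5% mitochondrial UMIs.

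The members and gene lists were chosen with earlier results of these data known. Clusters were Leiden clusters (resolution 0.5, 20 components, 2000 variable genes, 15 neighbours; scanpy 1.11.5) without the genes of the rule. Counts were summed per mouse and tested with edgeR 4.0.16 in R 4.3.3 (quasi-likelihood, TMM, filterByExpr, robust, sex as covariate, adjusted p of 0.05, Benjamini-Hochberg over all genes); DESeq2 1.42.0 was an alternative. Standard errors are the fold change over the root of the F statistic. Single values per mouse had exact two-sided permutation tests (SciPy 1.17.1), adjusted over 12. CPM was computed per mouse over all members, and log2(CPM + 1) used a pseudocount of 1. Genes were named by a rule: the called genes, the 10 of smallest p in a contrast with fewer than 10 calls, all of the regulator, MEF2 and cGAS-STING lists, up to 4 of each other list, the markers, and the 15 genes of highest ratio in members among those at 20 CPM or more. Genes of the unfiltered fit and of single clusters outside this rule were chosen after their values were seen. The edgeR step was tested on simulated counts over 5849 genes. Replicate numbers were given in accession order, and nuclei of a mouse were not taken as replicates. Shares of nuclei are given without intervals. Fits without a mouse, other filters, thresholds, depths and normalizations were tried as alternatives. Some items are not reported here.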

Additional observations from a re-analysis of the deposited data

Results flagged for a closer look

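Both results below were set apart because 1 mouse lay far from the others of its group, by Dixon's test at the 95% level, which chance flags in about 1 of 20 groups, and 20 groups were tested. Fezf2-gated nuclei made up 24.3% of the sum of members, Cux2-gated and Foxp2-gated nuclei in P301S Cgas-/- replicate 4, and the nearest mouse of the group had 5.76%. The median UMI count of members was 23740 in P301S Cgas+/- replicate 5, and the nearest mouse of the group had 15396.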

How the results depend on the processing

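In the tau, deletion and heterozygous contrasts 0 genes were called in the edgeR fit, by DESeq2 and without any 1 mouse, but without the filter on low counts 6, 8 and 10 were called. With only mice of at least 30 members the P301S Cgas+/+ group was replicate 2 alone, assumed to vary like the other groups, and 1 gene (Gm32647) was called for tau and 10 for deletion, which says little of the groups. Without the astrocyte-like cluster 1 (C130073E24Rik) was called for tau. This fit also lost P301S Cgas+/+ replicate 5 and P301S Cgas+/- replicate 1, which had fewer than 10 nuclei left. The cause of the call was not tested. The sex contrast, with 12 calls, had 21 by DESeq2, 102 without the filter, 22 with at least 30 members, 3 with at most 4000 genes per nucleus, 6 with the median UMI covariate, 1 after thinning to 2000 UMIs, 6 with the header version covariate, 4 without the Erg and Il1rapl2 clusters, and 4 to 22 without 1 mouse. Mef2c turned to -1.03 for tau with at least 30 members, where that 1 mouse stands for its group, and to 0.16 for sex without those clusters. The edgeR fit without the Erg and Il1rapl2 clusters also lost P301S Cgas+/- replicates 1 and 3, which kept 1 and 7 nuclei.

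No permutation result passed after adjustment under any alternative, and some differences changed sign. The share of kept nuclei changed to 0.00588 for tau on nuclei thinned to 3000 UMIs, to 0.148, -0.0824 and -0.115 percentage points for tau, deletion and heterozygous with header version 3.0.2 alone, and for heterozygous to -0.0133 with at most 4000 genes and to -0.0102 of Slc17a7- or Camk2a-positive nuclei. The median UMI count changed to -2.27 for tau and -2459 for heterozygous with at most 4000 genes. The log2 difference of Mef2c changed to -0.027 for tau with header version 3.1.0 alone, while version 3.0.2 alone, with 2 mice per group, gave 1.74. For heterozygous it changed to -0.20 with Fezf2 at 3 or more UMIs and -0.45 without the Erg and Il1rapl2 clusters. In the latter, P301S Cgas+/- replicate 1 kept 1 nucleus, and leaving out mice with fewer than 3 gave 0.55. Without 1 mouse, the share ranged from -0.0283 to 0.0583 for heterozygous, the cortical-type share from -0.904 to 2.87 for tau and -5.61 to 0.215 for deletion, and the median UMI count from -1137 to 609 for deletion and -1014 to 1574 for heterozygous. Header versions, the Erg and Il1rapl2 clusters and the restriction of Mef2c to mice with 10 members were chosen after the data were seen. Fits with Fezf2 at 3 or more UMIs, and with 30 members for the heterozygous contrast, were not run because too few mice remained. No paired analysis was possible because the labels carry no replicate numbers that join groups.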
